A study of Mus musculus with 28 samples.

Results

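Between 1 and 6 weeks after joint destabilization in mice, 10 microRNAs (miRNAs) rose and 11 fell in the cartilage of the medial tibial plateau, of 438 measured there. These counts hold the miRNAs that passed a test adjusted for all 438. Among those that passed, miR-5099 rose most, 1.81-fold, and miR-6969-5p and miR-6931-5p fell most, 3.33-fold and 2.27-fold. Without passing, miR-1a-3p had a larger rise than miR-5099, 2.18-fold, and miR-494-3p a larger fall than miR-6931-5p, 2.51-fold. Most of the changes that passed had the same direction in sham-operated cartilage over the same weeks. The comparison rests on 6 of the 28 arrays of the study, chosen by their titles and by cartilage as the source: 3 arrays at 6 weeks after destabilization of the medial meniscus (DMM) and 3 arrays at 1 week.

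All animals were male wild type C57BL6 mice, 10 to 12 weeks old at surgery, and both knees of a mouse had the same operation. In DMM, the medial menisco-tibial ligament, which holds the meniscus to the tibia, was cut, and the joint became unstable. In the sham operation that ligament was exposed and left whole, so both groups had the joint opened and flushed with saline. Each cartilage array held laser-microdissected cartilage RNA pooled from 3 mice, and each of the 4 cartilage groups (DMM or sham, 1 or 6 weeks) had 3 arrays. The 16 subchondral bone arrays, 4 per group, were of single mice. The mice taken at 6 weeks were also older by 5 weeks, so age, recovery from surgery and the course after destabilization cannot be told apart within the DMM arrays. The sham arrays show the change over the same weeks without the ligament cut.

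A miRNA is a short RNA that guides an Argonaute protein to messenger RNAs, mostly through its seed, bases 2 to 8 from the 5′ end, and lowers their translation or stability. miRNAs with the same seed are grouped as a family because they can bind many of the same targets. In cartilage, miR-140 and miR-455 are abundant in chondrocytes, and miR-140 is needed in mice for normal skeletal growth and joint upkeep. Osteoarthritis, of which DMM is a surgical model, is a loss of cartilage with changes in the bone below and the joint lining.

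The source field names these arrays as cartilage, while another label field of the same samples names subchondral bone. The signal of miR-140-5p averaged 11.95 ± 0.22 (SD, n = 12) log2 units where the source was cartilage and 8.21 ± 0.55 (SD, n = 16) where it was bone. That of miR-455-3p averaged 8.60 ± 0.27 (SD, n = 12) and 5.64 ± 0.43 (SD, n = 16), so the source field was followed. Cartilage array medians lay between 6.26 and 6.32 log2 units, correlations within a group between 0.967 and 0.993, and the median SD within a group was 0.172 log2 units. The lowest correlation and the largest median SD, 0.194, were both in the sham group at 6 weeks. Its array 1 lay at 1.04 and -5.31 on the first 2 principal components, the main axes of variation between cartilage arrays. The other arrays of that group lay at 6.37 and 0.25, and at 7.02 and -1.26. The DMM arrays at 6 weeks were also spread on the second component. Their arrays 1, 2 and 3 lay at -2.86 and 0.06, at -5.24 and -3.09, and at -1.66 and -5.26. Array medians set no array apart.

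The mature sequences of 17 of the 21 miRNAs that passed the test were found in RefSeq (GRCm38.p6). Those of the miRNAs described in most detail follow, 5′ to 3′, with the seed in capitals. The first 6 rose and the next 6 fell between the weeks, and miR-221-3p, which did not pass, is shown because it has the seed of miR-222-3p.
let-7e-5p: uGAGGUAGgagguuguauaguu
miR-98-5p: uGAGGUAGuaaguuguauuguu
miR-29c-3p: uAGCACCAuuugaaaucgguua
miR-34b-5p: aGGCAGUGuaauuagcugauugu
miR-149-5p: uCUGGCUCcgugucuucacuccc
miR-155-5p: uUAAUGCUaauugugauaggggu
miR-6931-5p: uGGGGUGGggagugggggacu
miR-1224-5p: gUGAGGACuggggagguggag
miR-6969-5p: cAGCAGAGuagggagcaaaaga
miR-8090: gAAGCGCAguggaggucugu
miR-8117: gCUCGUGUggaacagaagggg
miR-222-3p: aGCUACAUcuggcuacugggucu
miR-221-3p: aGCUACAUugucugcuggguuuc

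let-7e-5p and miR-98-5p share a seed, and so do miR-222-3p and miR-221-3p. The other miRNAs printed have a seed each of their own within this set. By RefSeq coordinates (GRCm38.p6), miR-6931-5p lies at chr11:102999896-102999916 on the minus strand within the span of Dcakd. miR-149-5p lies at chr1:92850381-92850403 on the plus strand within Gpc1, the gene of the proteoglycan glypican. miR-1224-5p lies at chr16:20604452-20604472 on the plus strand within Vwa5b2, and miR-6969-5p at chr17:28558475-28558496 on the minus strand within Clps. miR-98-5p lies within Huwe1 on chromosome X, and miR-222-3p at chrX:19146901-19146923 on the minus strand, within the span of no protein-coding gene. Only protein-coding genes were searched for such spans. Whether these positions are exonic or intronic was not examined.

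At an adjusted p of 0.05 (limma over all 12 cartilage arrays, Benjamini-Hochberg over all 438 miRNAs), 21 miRNAs or 4.79% passed. Those higher at 6 weeks were 10 (2.28%), and those lower were 11 (2.51%). Counted without adjustment, 94 (21.5%) had p under 0.05, with 47 higher and 47 lower. The median change over all 438 was -0.06 on the log2 scale, with 175 above 0 and 263 below. Changes of at least 2-fold were few, 5 miRNAs or 1.14%, and 3 of these passed the test.

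The split between higher and lower depended on the scaling. After quantile normalization 24 passed as higher and 11 as lower, after centring on the 75th percentile 23 and 11, and after centring on the median 19 and 11. The count also rested on single arrays. Without DMM array 1, 2 or 3 at 1 week it was 13, 7 or 7. Without DMM array 1, 2 or 3 at 6 weeks it was 12, 8 or 6, and without sham array 2 at 1 week it was 10. Without sham array 1 at 6 weeks, 15 passed as higher and 15 as lower. With any 1 of the 12 arrays left out, 6 miRNAs passed each time: miR-5099 and miR-149-5p as higher, and miR-6931-5p, miR-1907, miR-222-3p and miR-1224-5p as lower. Each of the other 15 lost its call with at least 1 array left out. With all 28 arrays in 1 fit, of the 6 only miR-5099 and miR-6931-5p passed, and miR-1907 was not tested.

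**Figure D1:**
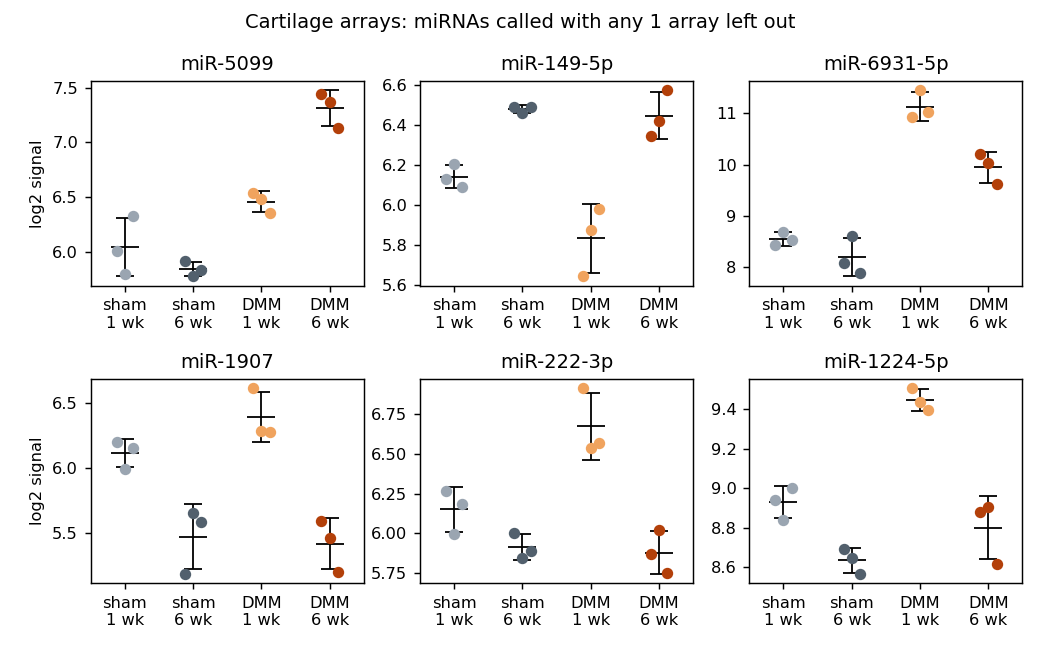
Log2 signal on each cartilage array (points), with group mean and SD (bars, n = 3), for the 6 miRNAs that passed the test with any 1 array left out; the vertical axes differ and do not start at 0. In DMM, all 6-week points of miR-5099 and miR-149-5p lie above the 1-week points, and those of the other 4 lie below them.

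miR-5099 had log2 signals of 6.54, 6.49 and 6.35 at 1 week after DMM and of 7.44, 7.37 and 7.13 at 6 weeks. All 3 later arrays were higher than all 3 earlier ones, by 0.86 ± 0.14 (SE) on the log2 scale with an adjusted p of 0.00428 by limma. In sham cartilage it had 6.01, 5.80 and 6.33 at 1 week and 5.91, 5.78 and 5.83 at 6 weeks, and these groups overlapped. The 6-week DMM arrays were thus the highest of all 12 for this miRNA.

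miR-149-5p had 5.65, 5.88 and 5.98 at 1 week and 6.34, 6.42 and 6.57 at 6 weeks, a rise of 0.61 ± 0.11 (SE) with an adjusted p of 0.00662 by limma. The sham arrays also separated, at 6.13, 6.20 and 6.09 and then 6.49, 6.46 and 6.49. At 1 week the DMM arrays were below all sham arrays, and at 6 weeks the DMM and sham arrays overlapped.

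miR-6931-5p is a late catalogue entry rich in G, as its sequence above shows. It had 10.92, 11.45 and 11.03 at 1 week after DMM and 10.20, 10.03 and 9.61 at 6 weeks, a fall of 1.19 ± 0.21 (SE) on the log2 scale with an adjusted p of 0.00662 by limma. Sham arrays were lower throughout, from 8.42 to 8.69 at 1 week and from 7.88 to 8.60 at 6 weeks. The fall in DMM therefore left this miRNA above sham at 6 weeks.

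miR-222-3p, which with its neighbour miR-221-3p is known to target the cell cycle inhibitor p27 (Cdkn1b), had 6.91, 6.54 and 6.57 at 1 week and 5.87, 6.02 and 5.75 at 6 weeks. It fell by 0.79 ± 0.13 (SE) on the log2 scale, with an adjusted p of 0.00428 by limma. Sham arrays held 6.27, 6.00 and 6.19 at 1 week and 6.00, 5.84 and 5.89 at 6 weeks. The DMM arrays were above all sham arrays at 1 week and overlapped them at 6 weeks. miR-221-3p went from 7.63, 7.08 and 7.38 to 6.83, 7.04 and 6.91, a change of -0.43 ± 0.13 (SE) that did not pass (adjusted p of 0.0816 by limma), although its groups did not overlap.

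miR-1224-5p, a mirtron whose precursor is cut from an intron by splicing, had 9.51, 9.44 and 9.40 at 1 week and 8.88, 8.91 and 8.62 at 6 weeks. It fell by 0.65 ± 0.10 (SE) on the log2 scale, with an adjusted p of 0.00428 by limma. The call was lost after quantile normalization, where the change was -0.37 (adjusted p of 0.0698). In sham it averaged 8.93 ± 0.08 (SD, n = 3) at 1 week and 8.64 ± 0.06 (SD, n = 3) at 6 weeks, without overlap. miR-1907 had 6.62, 6.28 and 6.28 at 1 week and 5.59, 5.45 and 5.20 at 6 weeks, and fell by 0.98 ± 0.15 (SE), with the same adjusted p of 0.00428. Its sham arrays went from 6.20, 5.99 and 6.15 to 5.18, 5.65 and 5.58, so both operations separated the weeks.

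**Figure D2:**
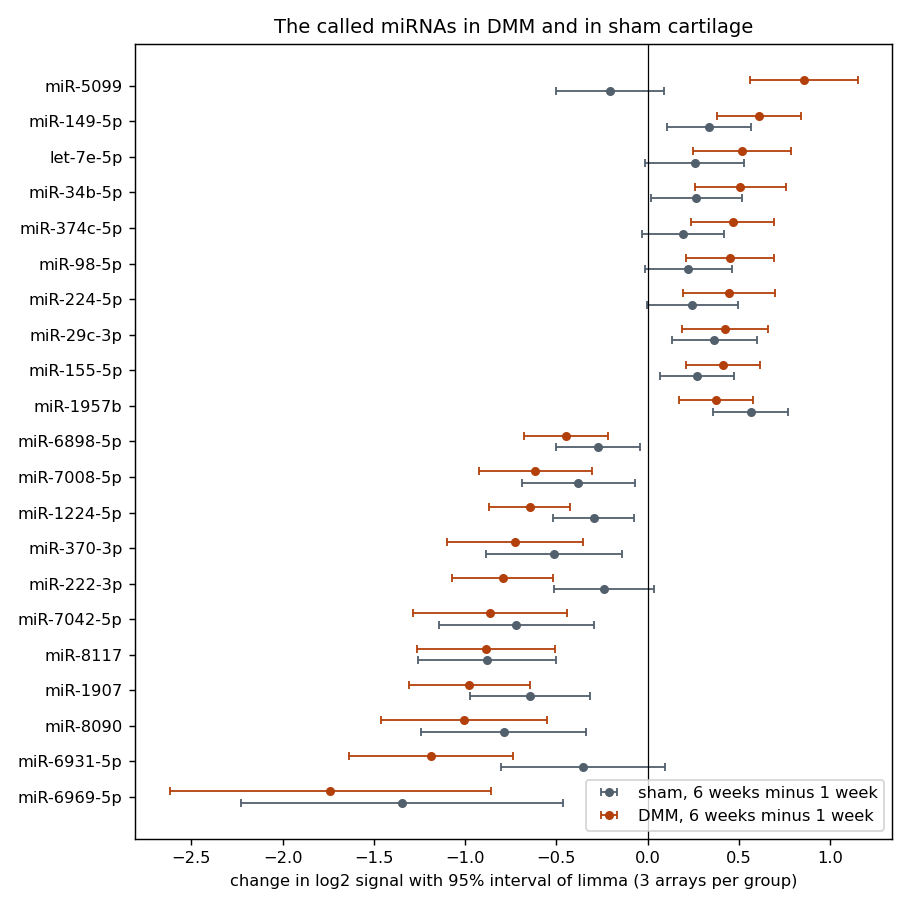
Change in log2 signal from 1 to 6 weeks for the 21 miRNAs that passed in DMM cartilage, with 95% intervals from limma (3 arrays per group), in DMM and in sham cartilage. 20 of the 21 sham changes have the sign of the DMM change, and miR-5099 is the exception. The 95% intervals of DMM lie on 1 side of 0 for all 21.

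The 11 miRNAs that fell included 7 with a number of 6000 or above, late entries of the miRNA catalogue about which little is known. Of all 438 miRNAs measured, 122 had such a number. miR-6969-5p went from 8.71, 8.64 and 8.10 at 1 week to 7.47, 6.79 and 5.98 at 6 weeks, a fall of 1.74 ± 0.41 (SE) with an adjusted p of 0.0316 by limma. Its 6-week arrays were widely spread, with an SD of 0.75 against 0.33 at 1 week. miR-8090 went from 6.54, 6.55 and 6.44 to 5.87, 5.47 and 5.18, and fell by 1.01. miR-8117 went from 8.12, 7.91 and 7.82 to 7.30, 7.22 and 6.69, and fell by 0.88. In each of these miRNAs array 3 at 6 weeks was the lowest.

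miR-7042-5p went from 7.62, 7.70 and 7.37 to 7.03, 6.74 and 6.32. miR-7008-5p went from 6.07, 6.15 and 6.01 to between 5.24 and 5.60, and miR-6898-5p from 7.85, 8.04 and 8.03 to between 7.43 and 7.60. These 3 fell by 0.86, 0.61 and 0.45. Of the 122 measured miRNAs numbered 6000 or above, 7 fell and 0 rose, where 2.51% of all 438 fell and 2.28% rose. Among the 122, 98 had a change below 0, as did 263 of all 438, and their median was -0.14 beside -0.06 over all miRNAs. The median was -0.10 with 31 changes above 0 after quantile normalization, and -0.06 with 42 above 0 after centring on the 75th percentile. The 7 falls were 7 under each of these. In 29 of the 122 the 6-week arrays lay wholly below the 1-week arrays and in 2 above, where 13% of all miRNAs did so in each direction. In sham cartilage 85 of the 122 had a change below 0 as well, with a median of -0.06 and 0 passing.

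Another of the falling miRNAs came from the Dlk1-Dio3 cluster, an imprinted locus on chromosome 12 that encodes many miRNAs on the maternal chromosome. miR-370-3p went from 6.61, 6.26 and 6.48 to 5.89, 5.73 and 5.55 and fell by 0.73 ± 0.17 (SE), with an adjusted p of 0.0316 by limma. Of the 29 measured members of the cluster 1 fell and 0 rose, where 2.51% of all miRNAs fell and 2.28% rose. The median change was -0.03, which turned to 0.05 after centring on the 75th percentile and to 0.01 after centring on the median. miR-494-3p had a larger but unsteady change of -1.33 ± 0.60 (SE; adjusted p of 0.225 by limma). Its signals were 11.43, 10.84 and 10.53 at 1 week and 10.84, 9.37 and 8.61 at 6 weeks, and the groups overlapped. miR-127-3p and miR-154-5p, at -0.50 and -0.45, separated the weeks without passing the test. In 3 of the 29 members the 6-week arrays lay wholly below the 1-week arrays and in 0 above, where 13% of all miRNAs did so in each direction.

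Among the 10 miRNAs that rose, 2 were of the let-7 family. These miRNAs accumulate as cells differentiate and are known to repress Hmga2 and Lin28. let-7e-5p went from 9.99, 10.03 and 9.63 to 10.35, 10.44 and 10.40, and rose by 0.52 ± 0.12 (SE), with an adjusted p of 0.0330 by limma. miR-98-5p went from 7.29, 7.23 and 7.09 to 7.54, 7.56 and 7.86, and rose by 0.45 ± 0.11 (SE), with an adjusted p of 0.0356. Of the 9 measured guide strands let-7a to let-7i and miR-98, 2 rose and 0 fell, where 2.28% of all miRNAs rose and 2.51% fell. Among the 9, 8 had a change above 0, as did 175 of all 438 miRNAs, and the median was 0.33. let-7f-5p and let-7c-5p, at 0.43 and 0.33, did not pass, and let-7i-5p was the only one of the 9 below 0, at -0.07. let-7k, with the same seed, and let-7j were measured as well but not counted among the 9, with changes of 0.12 and -0.04 that did not pass. After quantile normalization all 9 were above 0 and 4 rose, and after centring on the 75th percentile all 9 were above 0 and 3 rose. In sham cartilage 8 of the 9 were above 0 as well, with a median of 0.15 and 0 passing. The members differ by few bases, and signal shared between their probes was not tested.

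miR-29 miRNAs are known to repress collagen genes. miR-29c-3p went from 10.15, 9.92 and 9.92 to 10.41, 10.51 and 10.35, and rose by 0.42 ± 0.11 (SE), with an adjusted p of 0.0455 by limma. Of the 5 measured miR-29 strands 1 rose and 0 fell, where 2.28% of all miRNAs rose and 2.51% fell. All 5 changes were above 0, and the median was 0.37. In 4 of the 5 the 6-week arrays lay wholly above the 1-week arrays, as did 13% of all miRNAs. miR-29b-3p, with the same seed, had a change of 0.41 (adjusted p of 0.0842 by limma), and miR-29a-3p one of 0.11. After quantile normalization or centring on the 75th percentile 3 of the 5 rose. In sham cartilage all 5 changes were above 0 as well, with a median of 0.24 and 0 passing.

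miR-34b-5p belongs to a family induced by p53. It went from 5.52, 5.19 and 5.34 to 5.82, 5.93 and 5.81, and rose by 0.51 ± 0.11 (SE), with an adjusted p of 0.0295 by limma. miR-34a-5p, with the same seed, had a change of 0.25 and did not pass, with overlapping weeks.

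miR-155-5p, which is induced in activated immune cells, went from 5.64, 5.43 and 5.45 to 5.92, 5.99 and 5.86. It rose by 0.41 ± 0.09 (SE), with an adjusted p of 0.0295 by limma. Of the 5 measured inflammation-induced miRNAs 1 rose and 0 fell, where 2.28% of all miRNAs rose and 2.51% fell. The others had changes of 0.35 (miR-146a-5p), -0.04 (miR-146b-5p), -0.49 (miR-212-3p) and -0.57 (miR-21a-5p). miR-21a-5p ranged from 8.94 to 10.37 at 1 week and from 8.37 to 9.43 at 6 weeks, so the weeks overlapped.

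The remaining rises were small. miR-374c-5p went from 5.79, 5.82 and 5.75 to 6.20, 6.16 and 6.40, and miR-224-5p from 5.76, 5.97 and 5.84 to 6.45, 6.08 and 6.36. miR-1957b went from 5.62, 5.78 and 5.67 to 6.19, 6.03 and 5.99. They rose by 0.47, 0.45 and 0.38. For all 21 miRNAs the weeks did not overlap in DMM, where 13% of all miRNAs did not overlap as higher and 13% as lower. The exact two-sided permutation test of 3 against 3 arrays gave p = 0.1 for each of the 21, the smallest it can give. The 21 were chosen for passing on the same arrays, so their lack of overlap is a description and no further test.

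In other families no single member passed, and they are described by counts and medians alone. The miR-17-92 guides, from clusters known to favour proliferation, had 8 of 8 changes above 0 with a median of 0.30, and 0 rose. In 6 of them the 6-week arrays lay wholly above the 1-week arrays, where 13% of all miRNAs did so, and their median in sham was larger, at 0.49. The miR-30 strands had 7 of 9 above 0 in DMM and 7 of 9 in sham, with medians of 0.31 and 0.26. miR-30a-3p went from 5.32, 5.29 and 5.23 to 5.78, 5.60 and 5.75 and was nearest to the threshold, at 0.43 (adjusted p of 0.0540 by limma). It passed after each of the 3 other scalings, with an adjusted p from 0.0255 to 0.0337, and so did miR-30c-5p and miR-29c-5p.

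The 13 miRNAs of the 5p group related to the Sfmbt2 cluster, a large rodent repeat of near-identical miRNAs, all had changes below 0, with a median of -0.15. By limma 0 of them passed, and none separated the weeks. After centring on the 75th percentile 2 of the 13 were above 0. The miR-15/16 guides had a median of -0.05 (6 measured, 0 passed), and the 7 miRNAs of the miR-99, miR-100 and miR-125 families had -0.12 (0 passed). Both medians turned above 0 after quantile normalization, to 0.09 and 0.07. The 5 miR-181 strands had a median of 0.22, with 4 above 0 and 0 passing, beside a sham median of -0.05. miR-181c-5p, at 0.33, passed after each of the 3 other scalings, with an adjusted p from 0.0411 to 0.0491.

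**Figure D3:**
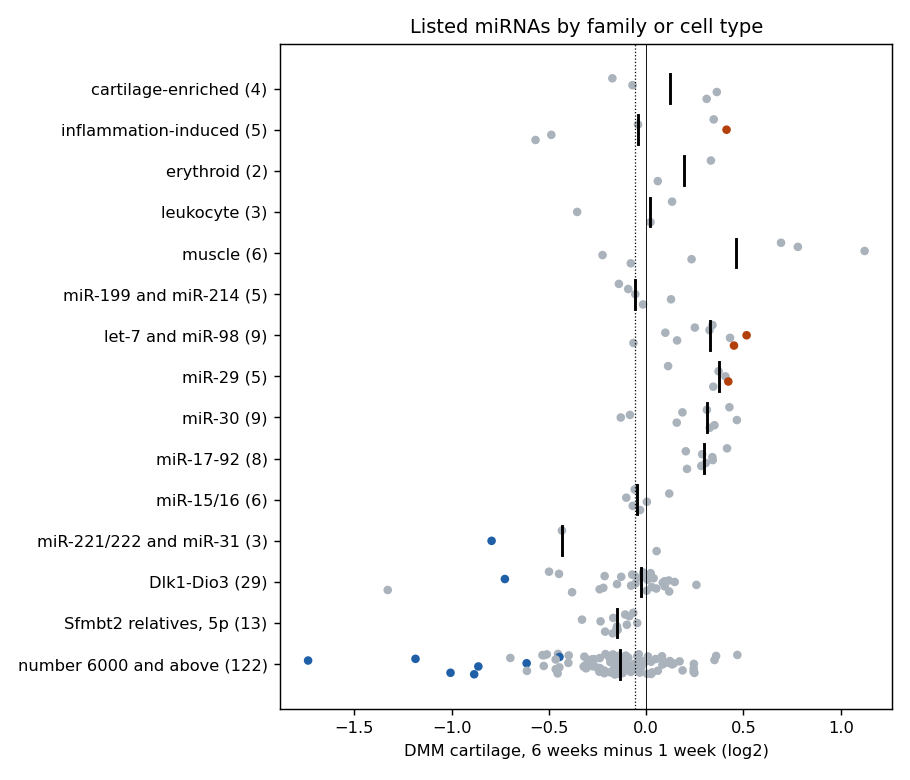
Change in log2 signal from 1 to 6 weeks after DMM for each measured miRNA (points) of 15 families or cell types, with the number measured in brackets, the group median as a bar and the median of all 438 miRNAs as a dotted line; red and blue points passed the test as higher or lower. The let-7, miR-29, miR-30 and miR-17-92 medians lie between 0.30 and 0.37, and all but 24 of the 122 miRNAs numbered 6000 or above lie below 0.

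None of the chondrocyte miRNAs passed the test. miR-140-3p went from 13.51, 13.32 and 13.24 to 13.12, 13.13 and 13.31, and the weeks overlapped. Its change was -0.17 ± 0.11 (SE), that of miR-140-5p -0.07, and those of miR-455-3p and miR-455-5p were 0.36 and 0.31, as 2 above and 2 below 0. In 1 of the 4 the 6-week arrays lay wholly above the 1-week arrays and in 0 below. Their summed signal ranged from 13.69 to 14.03 at 1 week and from 13.61 to 13.85 at 6 weeks on the log2 scale. Signals were summed before the log was taken, so miR-140 made up most of the sum. Over the 12 cartilage arrays its 3p and 5p strands averaged 13.41 and 11.95, and those of miR-455 8.60 and 6.93.

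Markers of other cells were also compared, since fewer cells of a type and less RNA per cell cannot be told apart in such pools. The 6 muscle miRNAs had a summed log2 signal of 8.13 to 8.39 at 1 week after DMM, and of 8.28, 8.44 and 9.50 at 6 weeks. Of the 6, 4 had a change above 0 and 2 below, from -0.22 to 1.12, and 0 passed. In 2 of the 6, miR-1a-3p among them, the 6-week arrays lay wholly above the 1-week arrays. In 0 they lay wholly below, where 13% of all miRNAs did so in each direction. In the sum, array 3 at 6 weeks stood above the other DMM arrays. On it miR-1a-3p was at 7.61, against 5.53 and 5.93 on the other 6-week arrays and 4.92 to 5.52 at 1 week. Its change of 1.12 ± 0.48 (SE) did not pass (adjusted p of 0.194 by limma), nor did 0.69 for miR-133a-3p and 0.78 for miR-133b-3p. This is the array without which the count of calls was 6, and the part of muscle RNA in the calls was not tested.

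The 2 erythroid miRNAs measured summed to 7.58 to 7.99 at 1 week and 7.75 to 8.55 at 6 weeks, and the 3 leukocyte miRNAs to 8.21 to 8.69 and 8.00 to 8.52. Both pairs of ranges overlapped in DMM. In sham the erythroid sum did not overlap, at 7.41 to 8.27 and then 8.50 to 10.18, while the leukocyte sum did, at 8.27 to 8.78 and 8.64 to 9.79. The part of blood cells in the sham values was not tested. miR-451a, carried by red blood cells, had a change of 0.33 in DMM and of 1.67 in sham, neither past the threshold. The 5 miRNAs of the mesenchymal miR-199 and miR-214 group had a median of -0.06, the endothelial miR-126a-3p had a change of -0.41, and the hypoxia-responsive miR-210-3p one of -0.06. None of these passed, and the values of -0.06 turned above 0 after centring on the 75th percentile, to 0.02 and 0.01. The miR-200 family of epithelial cells had 0 rows with values on all cartilage arrays.

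In sham cartilage from 1 to 6 weeks, 1 of 438 miRNAs passed (0.228%), and 77 (17.6%) had an unadjusted p under 0.05. The call was miR-1957b, which rose by 0.56 ± 0.09 (SE), with an adjusted p of 0.0269 by limma. miR-8117, miR-1907 and miR-8090 had -0.88, -0.64 and -0.79, and miR-20a-5p and miR-129-2-3p had 0.68 and 0.50, without passing. The sham count was 9 without sham array 1 at 6 weeks and 68 with array weights. It was 0 without sham array 1, 2 or 3 at 1 week, sham array 3 at 6 weeks, DMM array 3 at 1 week or DMM array 2 at 6 weeks, and 2 without DMM array 3 at 6 weeks. The 9 included miR-451a, miR-142a-3p, miR-20a-5p and miR-106b-5p, so blood cell miRNAs and miR-17-92 guides were among them.

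The DMM and sham changes over the weeks share no arrays and could be set side by side. Their p-values come from the same fit, with the same estimate of spread for each miRNA, and are not independent. Of the 21 miRNAs, 20 had the same sign in sham and 20 had the larger change in DMM. The share of equal signs over all miRNAs was not counted. Of the 21, 16 separated the weeks in sham as well, where 12.8% of all miRNAs did so as higher and 10.3% as lower. The 10 that rose in DMM had a median of 0.46 there and 0.26 in sham, and the 11 that fell had -0.86 and -0.51. The 21 were chosen for passing in DMM, so their larger values there are a description and no test. Over all 438 miRNAs the changes correlated with a Pearson r of 0.707 and a Spearman rho of 0.70, as a description across miRNAs measured on the same arrays. Of the miRNAs with an unadjusted p under 0.05, 50 were shared, all 50 with the same sign. They are 53.2% of the 94 in DMM and 64.9% of the 77 in sham. Both p-values of a miRNA use the same spread, so this overlap is a description and no test.

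**Figure D4:**
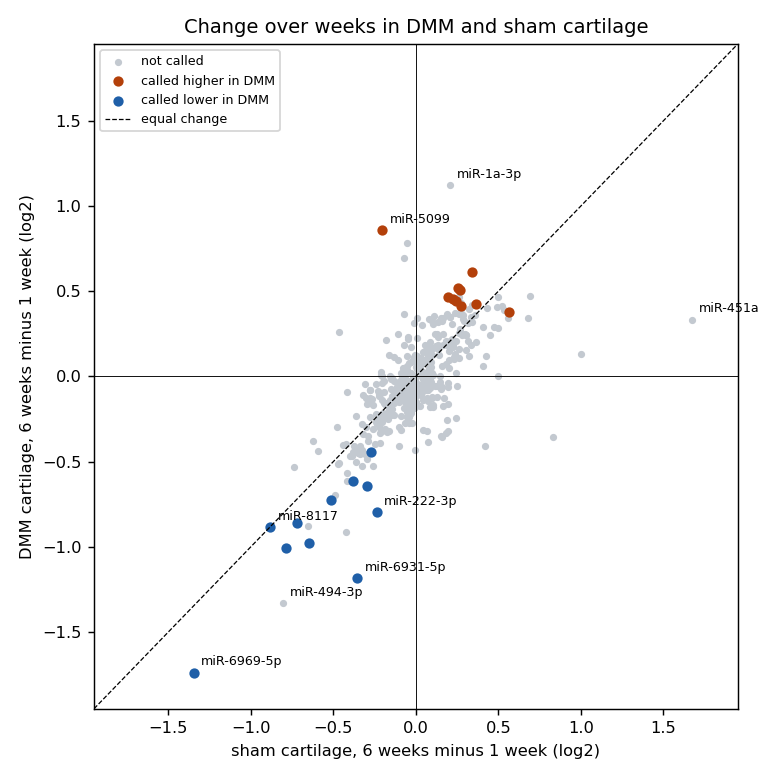
Change in log2 signal from 1 to 6 weeks in sham cartilage (horizontal) against DMM cartilage (vertical) for 438 miRNAs, with those called in DMM in red (higher) and blue (lower); the dashed line marks equal change. Called miRNAs other than miR-5099 lie in the quadrants of equal sign, and miR-8117 lies on the line, at -0.88 in both.

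The difference between the DMM and sham changes was tested in the same fit. By limma 0 of 438 miRNAs passed (0%), and 13 or 2.97% had an unadjusted p under 0.05, of which 3 were higher and 10 lower. miR-5099 came nearest, with a difference of 1.06 ± 0.19 (SE), a 95% interval from 0.64 to 1.48 and an adjusted p of 0.0565. Over 20 alternatives its adjusted p ran from 0.0178 to 0.225, and it passed in 6. Next by p were miR-222-3p at -0.56, miR-181a-1-3p at 0.40, miR-129-2-3p at -0.49 and miR-6931-5p at -0.83, each with an adjusted p of 0.999. For miR-409-3p the difference was 0.72.

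For the other named miRNAs the interval of that difference shows what these arrays can bound. It ran from -0.12 to 0.64 for let-7e-5p and from -0.14 to 0.43 for miR-155-5p, and each of these holds a difference as large as the DMM rise itself. It ran from -0.28 to 0.39 for miR-29c-3p and from -1.64 to 0.85 for miR-6969-5p. For miR-8117 it ran from -0.54 to 0.53, around a difference near 0.

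DMM was also set against sham at each week, comparisons that share the DMM arrays with the change over weeks. Of the 21 miRNAs, 8 passed at 1 week, where 27.9% of all did, and 2 at 6 weeks, where 16.9% did. miR-5099 was 0.41 above sham at 1 week and 1.47 above at 6 weeks, and miR-6931-5p was 2.59 and then 1.76 above, passing both times. The other 6 passed at 1 week alone. miR-222-3p was 0.52 above sham and then at -0.03, and miR-1224-5p 0.52 and then 0.17. The remaining 4, all of which rose between the weeks, were below sham at 1 week. miR-149-5p went from -0.31 to -0.04, miR-374c-5p from -0.56 to -0.29, miR-98-5p from -0.49 to -0.27 and miR-224-5p from -0.46 to -0.26.

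In subchondral bone after DMM, 0 of 490 miRNAs passed between the weeks (0%), and 95 (19.4%) had p under 0.05 before adjustment. Of the 21 miRNAs 15 were measured in bone, and 12 of these had the opposite sign there. The 95% interval of the bone change held 0 for each of the 15, so these arrays do not fix the sign in bone. Over all 490 miRNAs, 241 bone changes were above 0 and 249 below. The share of opposite signs over all miRNAs was not counted. Over the 359 miRNAs shared by both tissues the change differed between cartilage and bone for 2, or 0.557%. miR-5099 had a change of -0.24 in bone, a difference of 1.10 ± 0.24 (SE) with an adjusted p of 0.0457 by limma. miR-6931-5p had a change of 0.02 in bone, a difference of -1.20 ± 0.28 (SE) with an adjusted p of 0.0488. That of miR-6931-5p did not pass after quantile normalization (-1.01, adjusted p of 0.148) or centring on the 75th percentile (-1.03, adjusted p of 0.252). Cartilage arrays were of pools and bone arrays of single mice, and mice may be shared between tissues, so the arrays were taken as independent without a label that ties them.

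The miRNAs that fell held more G than those that rose. Of the 9 falling miRNAs with a RefSeq sequence the median G content was 45.5% (26.1% to 66.7%) and the median GC content 61.9%. Of the 8 rising ones it was 27.1% (15% to 40.9%) and 37.7%, and over all 364 matched miRNAs 33.3% and 54.5%. Across the 364, the DMM change correlated with the G content with a Pearson r of -0.209 and a Spearman rho of -0.237, and with the GC content with -0.244 and -0.284. In sham, the values for G were -0.11 and -0.0922 and those for GC were -0.245 and -0.276. These are descriptions across miRNAs whose probes share arrays and base composition, and the part of composition in the signal was not tested. Of the 21, 11 had a mean signal below the median of all values.

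**Figure D5:**
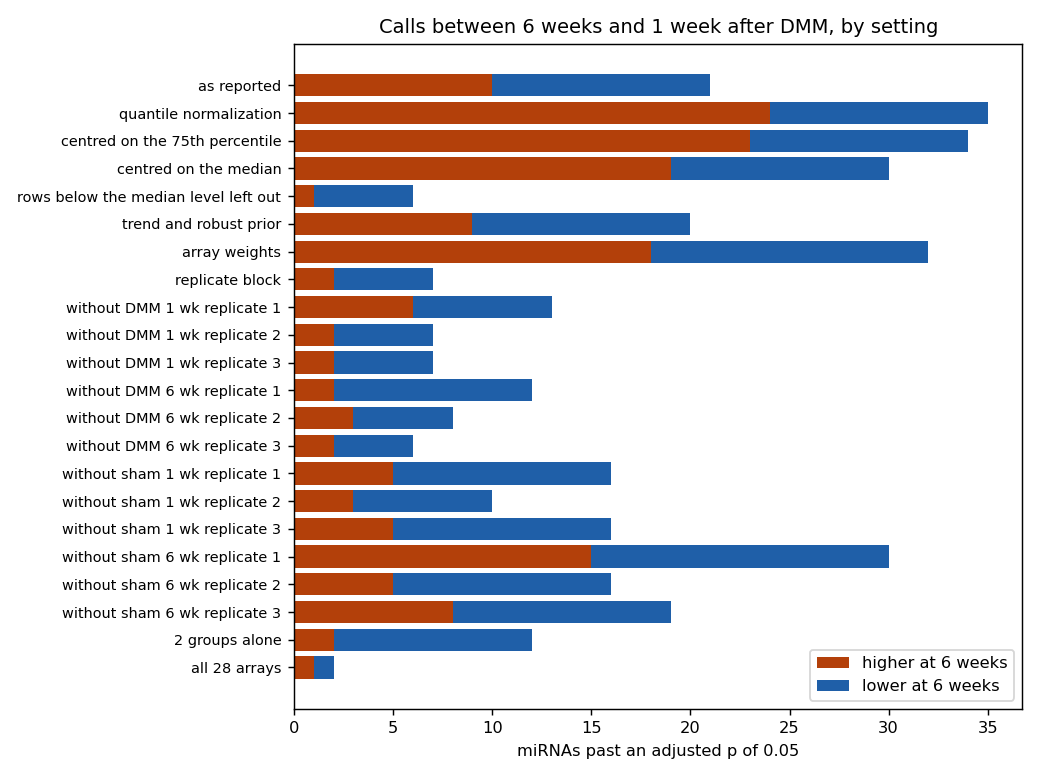
Number of miRNAs past an adjusted p of 0.05 between 6 weeks and 1 week after DMM, by setting, split into higher (red) and lower (blue) at 6 weeks. The count is 21 as reported, 35 after quantile normalization and 6 without DMM array 3 at 6 weeks, and 2 when all 28 arrays are fitted together.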

How the data were processed

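The deposited table holds log2 signals from Agilent SurePrint mouse miRNA arrays (release 21, 1 colour), read as log2 from their range of 4.08 to 16.7 and used as deposited. Per the submitters' processing notes, the authors used limma 3.20.9. The background correction, normalization and row filter were not given in the sources used here. Of 569 rows, 438 had a value on all 12 cartilage arrays, 490 on all 16 bone arrays and 359 on all 28, and 0 columns were left unused. The number of arrays limits the precision, and scanner background was not analysed here. P-values of the cartilage fits measure the spread between pools, and those of the bone fit the spread between mice. Those of the fit of both tissues mix the spread between pools and between mice.

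A model of group means was run in limma 3.58.1 (R 4.3.3, jsonlite 2.0.0), and sequences and figures were handled in Python 3.11.15 with pandas 2.3.3, scipy 1.17.1 and matplotlib 3.10.9. Named miRNAs were the 12 largest passing rises and falls, for sham and the difference of changes the 5 largest or the 3 with the lowest p, and members of 29 lists of families and cell types. The comparison and the lists were chosen with earlier results of these data known. The fit was tested on simulated data. Alternatives were other scalings, priors, weights, arrays and a replicate block.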

Additional observations from a re-analysis of the deposited data

Results flagged for a closer look

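The change of miR-5099 from 1 to 6 weeks after DMM differed between cartilage and bone by 1.10 on the log2 scale (SE 0.24, adjusted p of 0.0457 by limma over 359 miRNAs). Cartilage arrays of miR-5099 went from 6.54, 6.49 and 6.35 to 7.44, 7.37 and 7.13. Its bone arrays went from 6.20, 6.14, 6.23 and 6.10 to 5.77, 5.62, 6.39 and 5.92 and overlapped between the weeks. The change of miR-6931-5p differed by -1.20 (SE 0.28, adjusted p of 0.0488). Its bone arrays went from 8.22, 7.93, 8.31 and 8.24 to 8.35, 8.00, 8.40 and 8.03.

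miR-155-5p had 1 low bone array, the second at 1 week after DMM, at a log2 signal of 5.55 beside 5.94, 5.89 and 5.89 on the others. Its gap to the nearest array was large for a group of 4, a size of gap that chance gives in about 1 of 20 groups.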

How the results depend on the processing

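The calls depended on scaling, on single arrays and on which arrays shared the estimate of spread. For DMM cartilage the count of 21 became 35 after quantile normalization, 34 after centring on the 75th percentile, 32 with array weights, 6 without the rows below the median level (219 tested), 12 with the 2 groups fitted alone and 2 with all 28 arrays (359 tested). Leaving out 1 array at a time gave 6 to 30. Sham's count of 1 became 68 (41 higher, 27 lower) with array weights, 0 without the rows below the median level and 0 with the 2 groups alone, and 0 to 9 with 1 array left out. The difference of changes, 0 miRNAs, became 1 after quantile normalization, centring on the median, leaving out rows below the median level or array weights, and 0 to 1 with 1 array left out. Between tissues, 2 became 1 with quantile-normalized values and 1 with values centred on the 75th percentile. The causes were not tested. Same-numbered arrays did not deviate together: the correlation of deviations was -0.487 to 0.443 over 18 pairs, with 3 over 0.1, so the number was not taken as a pairing. With the number as a replicate block the DMM count was 7, the sham count 0 and the difference 0. None of the 21 miRNAs turned direction, but family medians near 0 did under 1 or more scalings, among them Dlk1-Dio3, miR-199 and miR-214, miR-210-3p, miR-15/16 and the miR-99, miR-100 and miR-125 group. Of 425 values of the 21 miRNAs under alternatives, 276 kept their call and 149 lost it; miR-5099, miR-6931-5p and miR-1907 kept it wherever they were tested.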
